A study of Mus musculus with 16 samples.

Results

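The 30 mitochondrially encoded genes of a mouse kidney expression table were examined, out of 30277 genes listed. They were all entries whose gene name starts with mt-, all lie on the mitochondrial chromosome, and their annotated biotype divides them into 13 mRNAs, 2 rRNAs and 15 tRNAs. GENCODE M21 annotates 22 mitochondrial tRNAs, and the other 7 are not analysed here. Kidneys came from C57BL/6J mice of 46 to 59 days carrying, or not, a recessive Klotho (Kl) mutation backcrossed onto that strain, and RNA with poly(A) tails was sequenced from 16 animals, 4 in each of 4 groups. Male controls were 2 wild-type (+/+) and 2 heterozygous (+/Kl) animals, female controls were 4 heterozygous animals, and the male and female KlKl groups were each 4 homozygous animals with renal failure. Controls had healthy kidneys. Kidneys were perfused, dissected and flash frozen, and the labels name no drug or other agent in any group. The wild-type animals are male controls 3 and 4. Nothing in the labels ties animals to litters.

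Mitochondrial DNA is a small circle that is transcribed from both strands into long precursors. Cutting at the tRNAs frees the mRNAs and rRNAs, most of which come from the heavy-strand transcript, and 1 mRNA (mt-Nd6) and 8 of the 15 listed tRNAs lie on the other strand, called light-strand genes here. The mRNAs encode core subunits of the respiratory chain: the mt-Nd genes belong to complex I, mt-Cytb to complex III, the mt-Co genes to complex IV and the mt-Atp genes to ATP synthase. The rRNAs mt-Rnr1 and mt-Rnr2 and the tRNAs serve the ribosomes that translate these mRNAs inside the organelle. Kidney tubules, above all the proximal tubule, are rich in mitochondria. The nucleus also holds inserted copies of mitochondrial DNA, and a read from a copy and a read from the organelle can be impossible to tell apart.

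The following sequences show where reads of genes and nuclear copies can be told apart, and give the 4 tRNAs with the highest mean level. They were taken by gene name from GENCODE M21 transcripts (build GRCm38), and positions count from 1 at the 5′ end of each gene. In the first pair, mt-Co1 from base 1054 to base 1113 is set against the first 60 bases of Gm29216, its copy on chromosome 1, and capitals mark the 6 bases that differ (T1056A, C1057T, A1059G, A1060G, C1062A and A1066T).
mt-Co1: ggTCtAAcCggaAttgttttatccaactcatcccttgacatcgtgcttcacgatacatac
Gm29216: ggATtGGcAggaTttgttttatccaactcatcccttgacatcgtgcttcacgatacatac
In the second pair, the first 60 bases of mt-Nd3 and of its copy Gm28438 differ in 1 base (T3C, in capitals).
mt-Nd3: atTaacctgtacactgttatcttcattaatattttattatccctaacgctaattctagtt
Gm28438: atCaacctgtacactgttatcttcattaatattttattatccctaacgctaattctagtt
In the third pair, the first 60 bases of mt-Co2 and of Gm28661 do not differ, so a read from this stretch fits both.
mt-Co2: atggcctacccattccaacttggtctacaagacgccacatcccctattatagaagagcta
Gm28661: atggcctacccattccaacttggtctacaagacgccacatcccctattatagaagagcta
These 4 tRNAs are all light-strand genes, and capitals in mt-Ts1 mark the 3 bases it shares, on the opposite strand, with the end of mt-Co1.
mt-Ts1: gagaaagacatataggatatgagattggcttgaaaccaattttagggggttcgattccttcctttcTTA
mt-Te: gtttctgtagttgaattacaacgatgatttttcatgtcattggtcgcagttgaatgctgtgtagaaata
mt-Tq: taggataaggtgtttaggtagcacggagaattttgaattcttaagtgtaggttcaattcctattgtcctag
mt-Ty: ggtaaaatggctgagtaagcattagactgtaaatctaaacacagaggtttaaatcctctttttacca

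The deposited values are TPM, a length-scaled level that here sums to 309446 in every library rather than to the usual total. The reads behind them could be recovered and ranged from 8209572 in female control 3 to 20109414 in male control 3. Kl, the check of the genotype labels, ranged over 7.82 to 11.7 TPM in control males, where KlKl males had 0.258 to 1.49. Among females, controls had 2.04 to 5.73 TPM and KlKl 0.0728 to 0.222, so control and KlKl libraries did not overlap in either sex. Proximal tubule markers were abundant, with a summed level of 1523 to 8292 TPM over 13 genes across the libraries.

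Together the members took 30.7% to 47.5% of each library's TPM and 9.71% to 19.6% of its reads, since TPM here divides by the whole gene length, introns included. Of the 20 most abundant genes of the table, 13 were mitochondrially encoded and 5 were nuclear copies. For males the share of TPM was 44.2% ± 2.58 in controls and 38.5% ± 3.81 in KlKl (SD, n = 4). For females it was 40.6% ± 6.64 in controls and 40.5% ± 1.69 in KlKl. The large spread of the female controls came from replicate 3, at 30.7%. The other 3 female controls lay at 42.4% to 45.1%.

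Of the 13 mRNAs, 7 have a copy within 1 stretch of chromosome 1, between bases 24650616 and 24655278 of build mm39 (minus strand), where all 7 copies are annotated as unprocessed pseudogenes. Gm28661, Gm10925 and Gm28437 match mt-Co2, mt-Atp6 and mt-Co3 over 681, 678 and 783 bases without a difference. Their TPM were 0.995 to 1.003 times those of the mitochondrial genes in all 16 libraries, so the deposited table lists nearly the same level under both names. Gm28438 matches mt-Nd3 over 342 bases and Gm10222 matches mt-Nd4l over 294. Gm28439 matches the first 63.6% of mt-Nd4, yet it had no more than 1 read in 15 libraries and 4955 reads (383 TPM) in male KlKl 1. The counting rule that divided reads between genes and copies is not given in the sources used here, so levels of these 7 genes are uncertain wherever they are printed alone.

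The copy of mt-Co1 behaved differently from the others. Gm29216 covers the last 31.3% of mt-Co1, with 482 of 483 aligned bases identical. Read coverage along mt-Co1, which can enter a ratio of its end to the whole gene, was not tested. In male controls 1 to 4 the ratio of Gm29216 to mt-Co1 TPM was 0.577, 0.229, 0.375 and 0.538, and in male KlKl 1 to 4 it was 0.455, 0.366, 0.581 and 0.470. In female controls it was 1.004, 1.219, 3.969 and 1.055, and in female KlKl it was 1.321, 1.289, 1.216 and 1.479. Every female library was above every male library, and female control 3 was the highest of all. The ratio of Gm28438 to mt-Nd3 went the opposite way, at 1.218 to 1.292 in males and 1.002 to 1.217 in females.

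**Figure D1:**
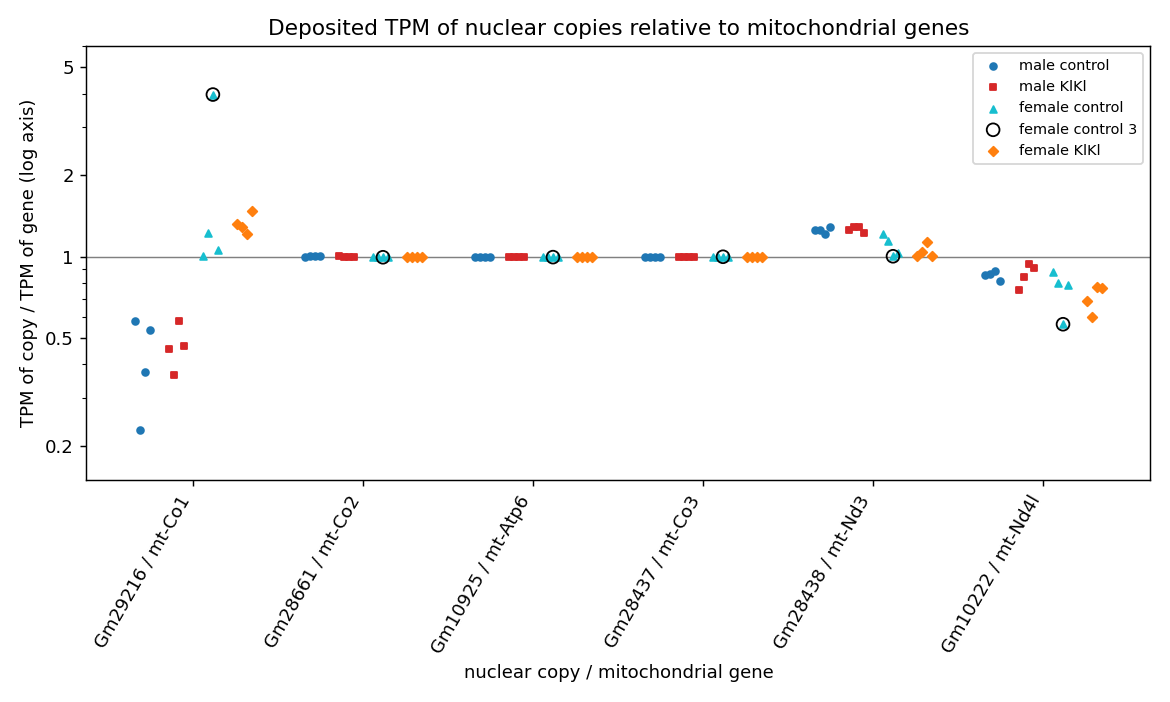
Ratio of the TPM of 6 nuclear copies to the TPM of the matching mitochondrial gene (y axis, log scale) in each of the 16 libraries, coloured by group, with female control 3 circled. The copies of mt-Co2, mt-Atp6 and mt-Co3 sit at 1 in every library, while the ratio of Gm29216 to mt-Co1 is 0.229 to 0.581 in males and 1.004 to 3.969 in females.

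For levels, the reads of a copy were therefore added to those of its gene and divided by the length of the gene. If the table lists the same reads under both names, this counts them more than once. Over the 15 libraries other than female control 3, the mRNAs spanned a 10.7-fold range of mean level per length, and 12 of the 13 lie on the heavy strand. The 3 highest were mt-Co2 (27508 ± 3333 TPM, SD), mt-Atp6 (24288 ± 3332) and mt-Co3 (23864 ± 1766), whose neighbouring means differ by less than an SD. Next came mt-Co1 (20259 ± 1457), below mt-Co3 and above the gene after it in all 15 libraries. From mt-Cytb (12359 ± 1385) through mt-Atp8, mt-Nd1, mt-Nd3, mt-Nd4 and mt-Nd6 to mt-Nd2 (6014 ± 1101), no gene differed from the next by more than the larger of their SDs. The lowest were mt-Nd4l (2798 ± 1368) and mt-Nd5 (2560 ± 624), and mt-Nd2 was above mt-Nd4l in all 15 libraries. The places of the highest genes rest on adding the copies: as deposited, mt-Co1 was first (16332 ± 2581), followed by mt-Co2 (13777 ± 1672), mt-Cytb (12359 ± 1385), mt-Atp6 (12175 ± 1669) and mt-Co3 (11938 ± 883). With or without the copies, mt-Nd4l and mt-Nd5 had the lowest means over these libraries. The range also differed by group, from 7.92-fold in male controls and 9.45-fold in male KlKl to 16.6-fold in the 3 other female controls and 20.1-fold in female KlKl. In both male groups the lowest gene was mt-Nd5 and in both female groups mt-Nd4l. The order of mt-Nd3 and mt-Nd4 changed as well, with mt-Nd3 below mt-Nd4 in the means of control males (7833 and 9076 TPM) and above it in those of KlKl females (10816 and 6164).

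**Figure D2:**
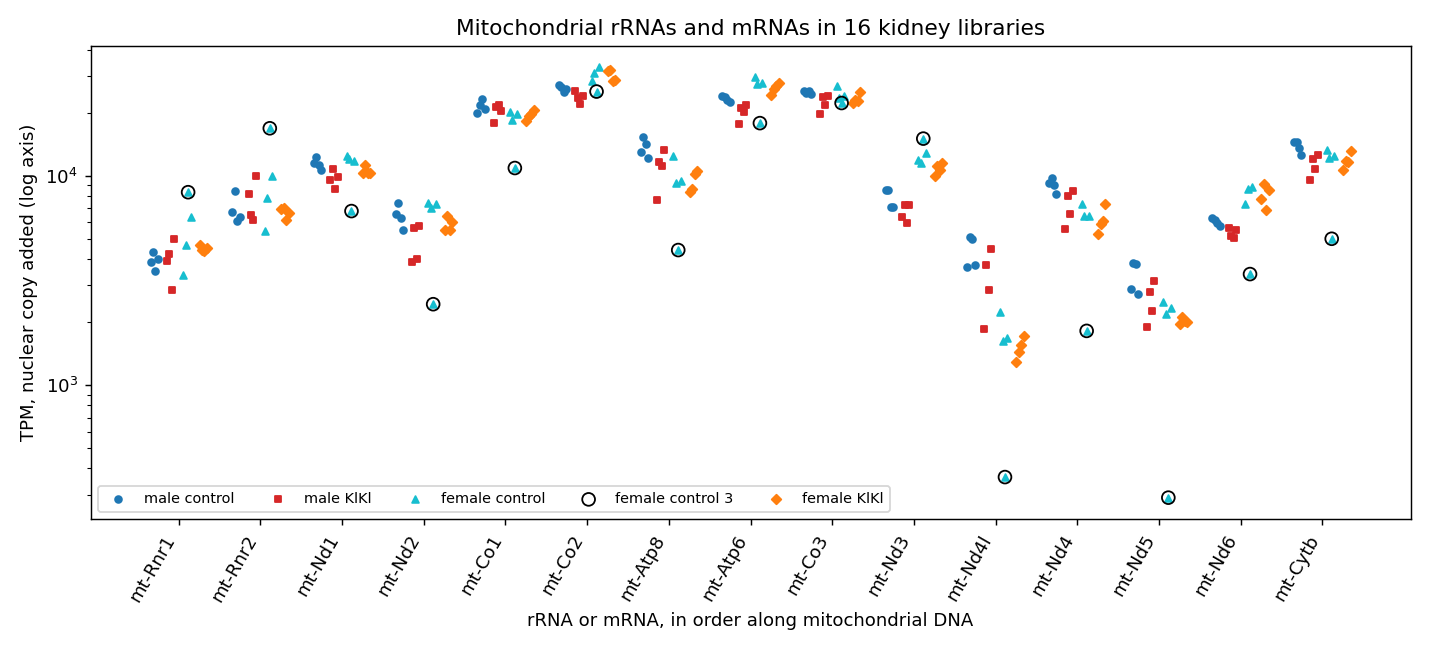
TPM (log axis, reads of the nuclear copy added) of the 2 rRNAs and 13 mRNAs in order along mitochondrial DNA, 1 point per library, coloured by group. Female control 3 (circled) is the lowest library for most mRNAs, with mt-Nd5 at 290, and the highest for both rRNAs.

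Female control 3 stood apart, and the main differences that involve the female controls are therefore given with and without it. It was the library with the fewest reads, from an animal of 57 days. With copies added, mt-Nd5 was 290 TPM there against 2195 to 2492 in the other 3 female controls, which is 8.07-fold lower than their mean. The next lowest relative to the others were mt-Nd4l (5.08-fold), mt-Nd4 (3.71-fold) and mt-Nd2 (2.98-fold). The difference was uneven: mt-Co3 was 22294 TPM against 23548 to 26792, and mt-Nd3 was higher, at 15069 against 11544 to 12840. Both rRNAs were higher as well, mt-Rnr1 by 1.75-fold and mt-Rnr2 by 2.18-fold. Per 100 reads of mitochondrial mRNAs and their copies there were 38.7 rRNA reads in this library and 7.74 to 14.8 in the other 15. Across the 13 mRNAs, the log2 ratio of female control 3 to the others had a Pearson r of -0.43 and a Spearman rho of -0.35 with gene length. Without mt-Nd4l, which was left out after its value was seen, r was -0.66 and rho -0.59. The stronger values follow from that choice and are no support for a relation with length. The gene overlaps mt-Nd4 by 7 bases, but mt-Atp8, which overlaps mt-Atp6 by 43, was kept. These correlations are across genes of 1 library, which are not independent replicates.

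**Figure D3:**
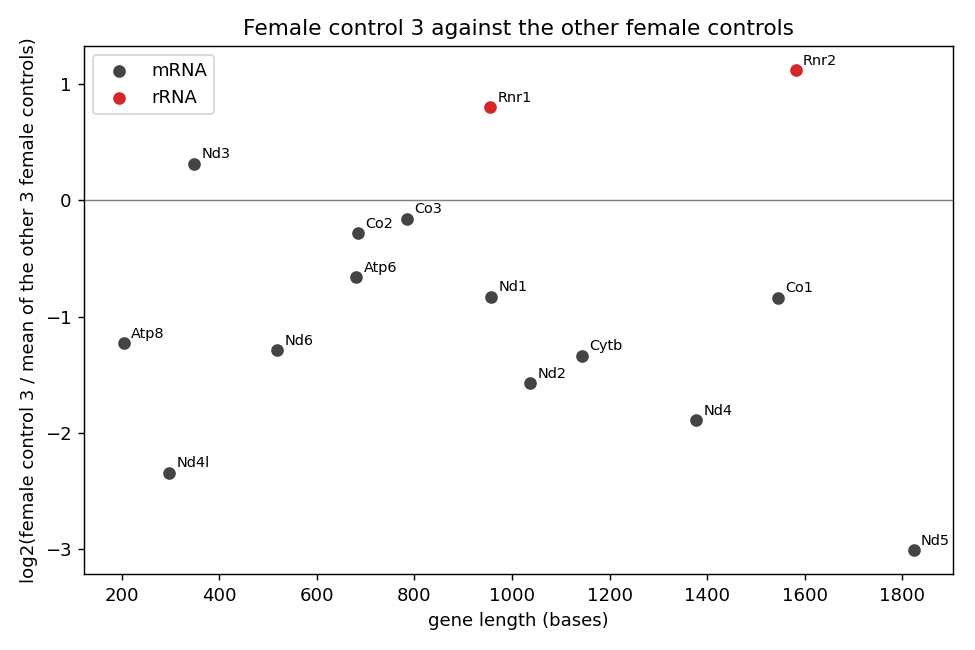
Log2 ratio of the level in female control 3 to the mean of the other 3 female controls (y axis) against gene length in bases (x axis), 1 point per gene, mRNAs in dark grey and rRNAs in red. Only mt-Nd3 and the 2 rRNAs lie above 0, and mt-Nd5, the longest mRNA, is the lowest.

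The first comparison asks how renal failure in KlKl mice relates to these transcripts in males. All 13 mRNAs were lower on average in male KlKl than in male controls, but no mitochondrial gene passed the test (limma on log2(TPM + 1) over all 8059 tested genes, 25 of the 30 members among them, adjusted p under 0.05). Of all tested genes, 0.0993% passed. At an unadjusted p under 0.05 there was 1 member, beside 1603 of all 8059 tested genes. It was the tRNA mt-Te, which was higher in KlKl, unlike the mRNAs. The median difference of the mRNAs was -0.23 on the log2 scale, beside 0.18 for all tested genes, and the differences ranged from -0.50 to -0.09. The voom fit on recovered reads passed none of the 13 mRNAs either. It had 8 of them under an unadjusted p of 0.05, with no count over all its genes to set beside them. Without female control 3, which enters the shared spread, still none passed, beside 0.211% of all tested genes. In that fit 11 mRNAs were under an unadjusted p of 0.05, beside 2142 of all 8059 tested genes.

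In males, mt-Nd2, a membrane subunit of complex I, had 6551, 7438, 6303 and 5485 TPM in controls 1 to 4. In KlKl 1 to 4 it had 3869, 5620, 4002 and 5732 TPM. The groups overlapped, and the difference was -0.44 ± 0.28 (SE, n = 4 per group, limma adjusted p = 0.33). For mt-Co3, of complex IV, the controls had 12676, 12509, 12790 and 12319 TPM and the KlKl libraries 9837, 11965, 10908 and 12046. Here each KlKl library lay below each control, with a difference of -0.17 ± 0.083 and an adjusted p of 0.25 by limma, the smallest among the mRNAs. The complex I subunits mt-Nd4l and mt-Nd5 had differences of -0.50 ± 0.39 (limma adjusted p = 0.39) and -0.40 ± 0.49 (limma adjusted p = 0.57). The rRNAs were at 0.00 for mt-Rnr1 (-0.0026 ± 0.22) and 0.14 ± 0.25 for mt-Rnr2, with adjusted p of 0.99 and 0.70 in limma.

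Per 100 reads of nuclear protein-coding genes, a scale that does not depend on the fixed TPM total, mitochondrial mRNAs and copies counted 22.2 ± 2.54 reads in control males and 16.8 ± 2.94 in KlKl males (SD, n = 4). Male KlKl 1 was lowest, at 13.1, and male KlKl 4, the animal of 59 days, lay above male control 4, at 19.2. On the same scale, females had 27.3 ± 6.26 reads as controls, or 30.3 ± 2.56 without female control 3, and 26.7 ± 3.23 as KlKl. With median-ratio scaling the 13 mRNAs were again all lower on average, with a median of -0.41 beside 0.05 for all tested genes. None passed. Under an unadjusted p of 0.05 there were 5, with no count over all tested genes to set beside them. In these kidney libraries, fewer cells of a type and less RNA per cell cannot be told apart. The summed level of 13 proximal tubule markers was 6555 to 8095 TPM in male controls and 1523 to 8292 in male KlKl, and that of 5 erythrocyte markers was 10.98 to 142 against 96.0 to 479, both with overlap. Thick ascending limb markers (6 genes of another tubule segment) summed to 132 to 162 TPM in control males against 177 to 264 in KlKl males, without overlap, and 11 macrophage and dendritic cell markers at 40.7 to 51.8 and 45.5 to 91.3. No marker of these 4 lists was at 0 in all libraries of a group. Their part in the mitochondrial values was not tested.

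In females the direction of the KlKl difference turned on female control 3. With all libraries, 11 of 13 mRNAs were higher in KlKl, with a median of 0.18 beside 0.10 for all tested genes. In limma 0 members passed, beside 0.0124% of all tested genes, and voom passed none of the mRNAs. At an unadjusted p of 0.05 limma had 1 member, beside 376 of all 8059 tested genes. Without female control 3, again 0 passed in limma, with 3 members under an unadjusted p of 0.05 beside 223 of all 8059 tested genes. In that fit all 13 mRNAs were lower, with a median of -0.11 beside 0.08. The level of mt-Nd5 shows this: 2492, 2195, 290 and 2337 TPM in female controls 1 to 4 and 1963, 2123, 2021 and 2010 in female KlKl. Its difference was 0.55 ± 0.49 with all libraries (limma adjusted p = 0.74) and -0.20 without female control 3 (limma adjusted p = 0.98). For mt-Rnr2 the controls had 5439, 7830, 16885 and 9959 TPM and the KlKl libraries 6939, 7033, 6186 and 6618. The difference of -0.46 ± 0.25 (limma adjusted p = 0.73) became -0.17 (adjusted p = 0.98) without that library. The subunit gene mt-Nd3 was -0.21 ± 0.12 with it and -0.10 without it (limma adjusted p = 0.73 and 0.98).

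The sex difference of the KlKl effect (males minus females) was negative for all 13 mRNAs, with a median of -0.46 beside 0.07 for all tested genes. No member passed, nor did any other gene, at 0% of all tested, and voom passed 0 mRNAs. In limma 0 members were under an unadjusted p of 0.05, beside 175 of all 8059 tested genes. Leaving out female control 3 gave a median of -0.13, still negative for 13 of 13. In that fit 1 member was under an unadjusted p of 0.05 in limma, beside 221 of all 8059 tested genes. Adding the nuclear copies turned the difference of effects for mt-Nd3 from -0.02 to 0.02. For mt-Nd5 the difference of effects was -0.95 ± 0.69 and became -0.20 without that library (limma adjusted p = 1.00 and 0.99), and for mt-Nd4 it was -0.71 ± 0.46 and became -0.24. Averaged over the sexes, 10 of 13 mRNAs were lower in KlKl, median -0.08, with 0 passing in limma, beside 0.0372% of all tested genes. No mRNA passed in voom. At an unadjusted p of 0.05 limma had 1 member, beside 2121 of all 8059 tested genes. Without female control 3 all 13 were lower, median -0.20, beside 0.13 for all tested genes. None passed in limma, beside 0.0248% of all tested genes. At an unadjusted p of 0.05 there were 11 members in that fit, beside 2016 of all 8059 tested genes.

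**Figure D4:**
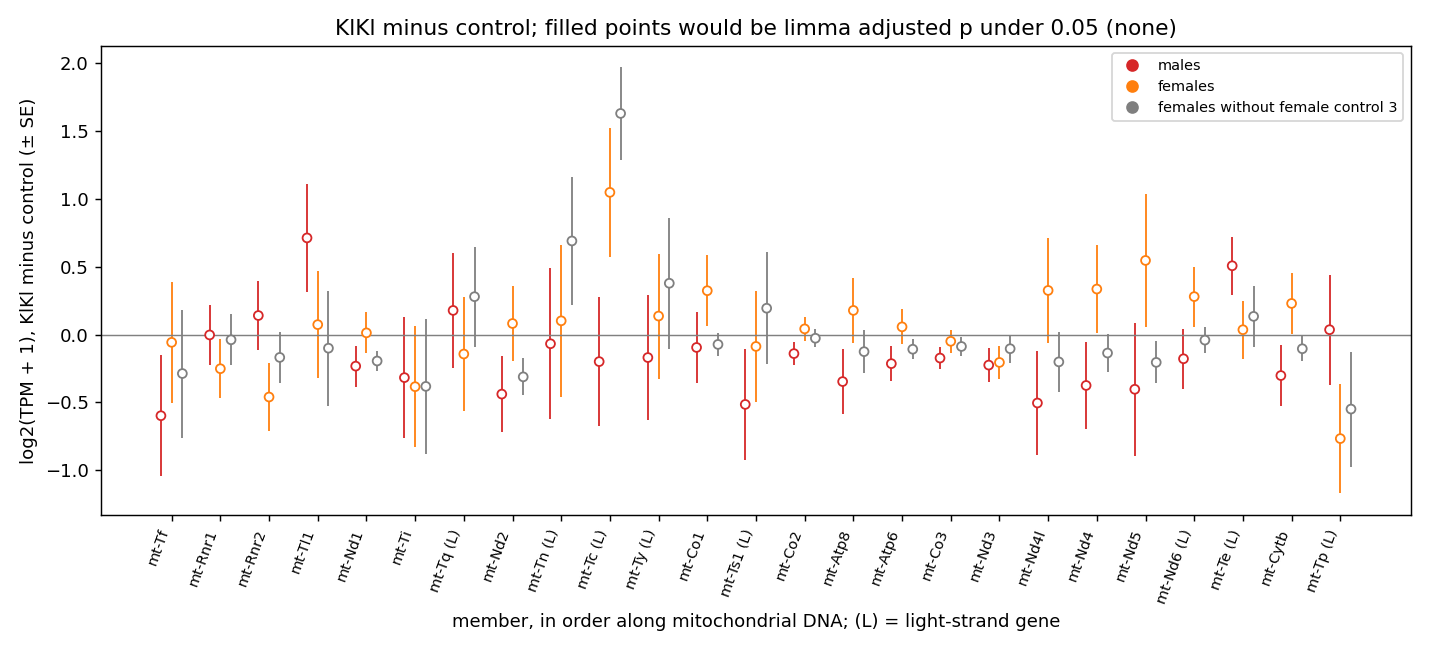
Difference of log2(TPM + 1), KlKl minus control, with its SE, for the 25 tested genes in order along mitochondrial DNA: males in red, females in orange, females without female control 3 in grey. No point passed the test; all 13 mRNAs are below 0 in males, and in females 11 of 13 are above 0 with female control 3 and 0 without it.

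Males and females differed in many mitochondrial transcripts, in both directions. In controls 10 of 25 tested members passed, in a table in which 52.6% of all tested genes passed, so the share of members was not above the background. Of all tested genes 44.3% passed as higher and 8.3% as lower in males, beside 5 and 5 of the 25 members. Higher in males were the complex I mRNAs mt-Nd4l, mt-Nd5 and mt-Nd4, the complex IV mRNA mt-Co1 and the ATP synthase mRNA mt-Atp8. Lower in males were the complex I mRNA mt-Nd3 and the light-strand tRNAs mt-Ts1, mt-Tq, mt-Ty and mt-Te. In KlKl 9 of 25 passed, all lower in males, where 54.7% of all tested genes passed, 50.9% as higher and 3.72% as lower. They were mt-Ts1, mt-Tq, mt-Tc, mt-Ty, mt-Tn, mt-Nd3, mt-Nd6, mt-Atp6 and mt-Co2. Among the 15 genes that passed in at least 1 of the comparisons, 4 passed in both: mt-Ts1, mt-Tq, mt-Ty and mt-Nd3. Without female control 3, 12 passed in controls (5 higher, 7 lower) and 12 in KlKl (2 higher, 10 lower), beside 49.1% and 60% of all tested genes (controls 40.9% higher and 8.19% lower, KlKl 55.1% and 4.94%). When libraries were scaled by median ratios, 10 passed in controls, 1 higher and 9 lower, and 12 in KlKl, all lower, beside 31.7% higher and 17.7% lower of all tested genes in controls and 28.5% and 11.6% in KlKl. The labels name no sequencing run, and the sample numbers in the library names recur once in each sex, so sex and a difference of run cannot be told apart.

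The clearest difference was in the serine tRNA mt-Ts1 (chrM:6870-6938, light strand, directly after mt-Co1). Male controls had 16, 12, 17 and 8 reads of it, and KlKl males had 13, 4, 7 and 4. In female controls it had 51, 66, 117 and 143 reads, and in female KlKl 75, 89, 66 and 105. No male library reached the lowest female library. Total reads were 13029986 to 20109414 in male libraries and 8209572 to 14505395 in female libraries, with overlap. The difference of males minus females was -3.02 ± 0.41 in controls and -3.44 ± 0.41 in KlKl (limma adjusted p = 4.3e-05 and 1.8e-05). Without female control 3 the difference in controls was -2.73 (limma adjusted p = 0.00015).

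The glutamine tRNA mt-Tq (chrM:3772-3842) had 0 to 2 reads in each male library. Female libraries had 4, 4, 14 and 10 reads in controls and 6, 5, 5 and 11 in KlKl. The sexes did not overlap, but male counts are at or under the 3 reads that a count of 0 allows, and the fitted differences of -2.48 ± 0.42 and -2.16 ± 0.42 (limma adjusted p = 0.00025 and 0.00069) depend on the added 1 TPM. The control difference was -2.06 without female control 3 (limma adjusted p = 0.00050). The glutamate tRNA mt-Te (chrM:14071-14139) was the best covered in males. Its level in control males was 27.3, 22.6, 24.3 and 32.8 TPM, and in control females 35.3, 52.7, 64.1 and 61.3, without overlap. In KlKl males had 56.9, 35.3, 35.0 and 29.9 TPM and females 57.4, 56.1, 43.5 and 57.9, with overlap through male KlKl 1. The difference was -0.95 ± 0.21 in controls and -0.48 ± 0.21 in KlKl (limma adjusted p = 0.0020 and 0.071), and -0.85 in controls without female control 3 (limma adjusted p = 0.0062). Their difference between the groups was 0.47 ± 0.30, or 0.37 without that library, and did not pass (limma adjusted p = 1.00 and 0.99).

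The tyrosine tRNA mt-Ty (chrM:5260-5326) had 0 to 3 reads in males and 2 to 10 in females. It differed by -1.33 ± 0.46 in controls and -1.64 ± 0.46 in KlKl (limma adjusted p = 0.024 and 0.0075), and without female control 3 the control difference no longer passed (adjusted p = 0.075). It was also lost without male control 4 or female control 4 (adjusted p = 0.085 and 0.080). In KlKl the cysteine tRNA mt-Tc and the asparagine tRNA mt-Tn also passed, at -1.90 ± 0.47 and -1.49 ± 0.56 (limma adjusted p = 0.0035 and 0.034). For mt-Tc every male KlKl library had 0 reads and the female KlKl libraries 4, 1, 2 and 7, so the size of its difference is set by the added 1 TPM and is no bound. For mt-Tn the male KlKl libraries had 0, 0, 3 and 0 reads and the female KlKl libraries 3, 4, 4 and 3, and the call was lost in 6 of 16 fits that left out 1 library, those without male KlKl 1, 2 or 4 or female KlKl 1, 2 or 3 (adjusted p up to 0.092). Summed over the 8 light-strand tRNAs, each male library had 42 to 74 reads and each female library 113 to 236, with 207 in female control 3. The 7 heavy-strand tRNAs in the table had 3 to 8 reads in males and 5 to 19 in females, and none of the 3 that were tested passed. The other 5 tRNAs, mt-Ta, mt-Tm, mt-Tk, mt-Tg and mt-Th, were too low to be tested, with at most 3 reads in a library except for 12 of mt-Tm in female control 3. Mature tRNAs have no poly(A) tail and are poorly captured in such libraries. The library kit keeps the strand, but whether the counting used it is not given in the sources used here, so reads of a light-strand tRNA gene and of the heavy-strand precursor that runs across it cannot be told apart.

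**Figure D5:**
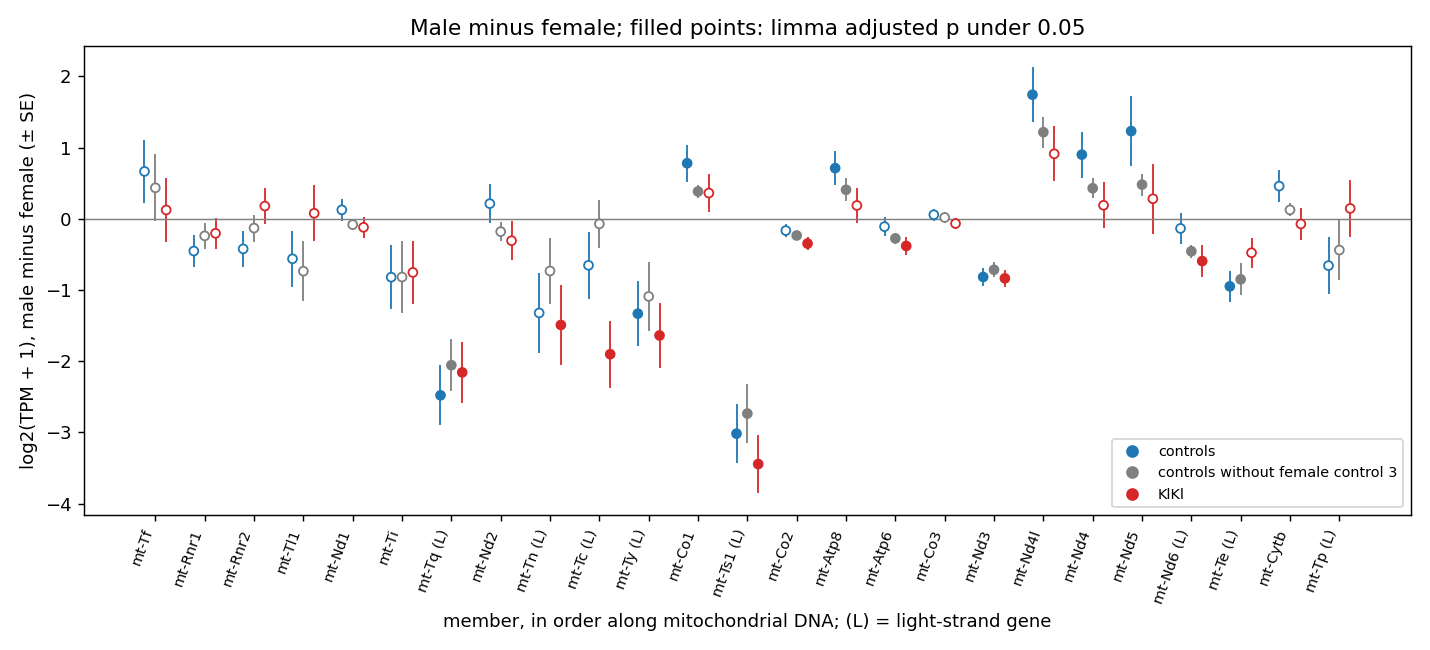
Difference of log2(TPM + 1), male minus female, with its SE, for the 25 tested genes in order along mitochondrial DNA: controls in blue, controls without female control 3 in grey, KlKl in red; filled points passed the test and (L) marks light-strand genes. The light-strand tRNA mt-Ts1 is the lowest point, at -3.44 in KlKl, and mt-Nd4l the highest, at 1.74 in controls.

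Among the mRNAs, mt-Nd3 (chrM:9459-9806) separated the sexes most evenly. Male controls had 3804, 3828, 3212 and 3120 TPM and male KlKl 2828, 3194, 2632 and 3288. Female controls had 5405, 5424, 7554 and 6335 TPM and female KlKl 4998, 5453, 5015 and 5809. Every female library was above every male library, with differences of -0.82 ± 0.12 in controls and -0.84 ± 0.12 in KlKl (limma adjusted p = 9.7e-05 and 8.6e-05). The control difference was -0.72 without female control 3 (limma adjusted p = 0.00012). With the reads of Gm28438 added the differences were -0.71 and -0.69 and still passed (limma adjusted p = 9.5e-05 and 0.00013), and without female control 3 as well the control difference was -0.63 (limma adjusted p = 0.00012).

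Of the mRNAs higher in males, mt-Nd4l had the largest difference. It had 1995, 2765, 2659 and 2072 TPM in control males and 1194, 909, 234 and 949 in female controls, without overlap. In KlKl males had 1062, 2040, 1472 and 2349 TPM and females 769, 902, 878 and 976, again without overlap. The difference was 1.74 ± 0.39 in controls and 0.91 ± 0.39 in KlKl (limma adjusted p = 0.0017 and 0.056). Without female control 3 it was 1.22 in controls (limma adjusted p = 0.00052) and the KlKl difference passed (adjusted p = 0.0015). With the reads of Gm10222 added the differences were 1.82 and 1.04, and both passed (limma adjusted p = 0.0023 and 0.048).

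The other mRNAs higher in control males shrank without female control 3 but still passed. For mt-Nd5 the difference went from 1.23 ± 0.49 to 0.48 (limma adjusted p = 0.045 and 0.020), and its call was lost in 11 of the 16 fits that left out 1 library, all except those without male KlKl 3 or any 1 female control (adjusted p up to 0.095). For mt-Nd4 it went from 0.90 ± 0.32 to 0.43 (limma adjusted p = 0.028 and 0.021), and for mt-Atp8 from 0.71 ± 0.24 to 0.41 (limma adjusted p = 0.022 and 0.047). The call of mt-Nd4 was lost without male control 1, 2 or 3 (adjusted p up to 0.058) and that of mt-Atp8 without male control 2 (adjusted p = 0.054). None of these 3 passed in KlKl, and the difference between controls and KlKl did not pass for any of them. They also did not pass in controls when libraries were scaled by median ratios, which moved the median of all tested genes from 0.26 to 0.09: mt-Nd5 was then 0.96, mt-Nd4 0.63, mt-Atp8 0.44 and mt-Co1 0.51 (limma adjusted p = 0.12, 0.13, 0.16 and 0.12).

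The difference in mt-Co1 changed with the handling of its copy. Alone, mt-Co1 (chrM:5328-6872) had 16795, 20413, 20740 and 17794 TPM in control males and 15329, 13300, 4817 and 14784 in female controls, a difference of 0.78 ± 0.26 (limma adjusted p = 0.020). It was 0.38 without female control 3 (limma adjusted p = 0.0022), and without male control 3 the call was lost (0.74, adjusted p = 0.051). Its copy Gm29216 (chr1:24654787-24655278) had 9695, 4685, 7777 and 9577 TPM in the same males and 15392, 16217, 19116 and 15594 in the same females, a difference of -1.11 ± 0.20 (limma adjusted p = 0.00030), or -1.04 without female control 3 (adjusted p = 0.00097). Gene and copy thus differed in opposite directions, each without overlap of the sexes. With their reads added, male controls had 19882, 21905, 23216 and 20843 TPM and female controls 20230, 18464, 10904 and 19749, with overlap, and the difference was 0.35 ± 0.15 (limma adjusted p = 0.064). That difference was 0.14 without female control 3 (limma adjusted p = 0.13). In KlKl the same contrast was 0.36 ± 0.26 for mt-Co1, -1.16 ± 0.20 for Gm29216 and 0.05 ± 0.15 for both together (limma adjusted p = 0.25, 0.00022 and 0.78). With female control 3 left out of the shared spread, mt-Co1 alone passed in KlKl too (limma adjusted p = 0.0014), and the sum did not (adjusted p = 0.50).

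Lower in KlKl males than in KlKl females were mt-Co2 (-0.35 ± 0.086), mt-Atp6 (-0.38 ± 0.13) and the light-strand mRNA mt-Nd6 (-0.59 ± 0.22), with adjusted p of 0.0035, 0.021 and 0.033 by limma. The call of mt-Nd6 was lost in 6 of 16 fits that left out 1 library, those without male KlKl 1, 2 or 3 or female KlKl 1, 2 or 4 (adjusted p up to 0.088), and that of mt-Atp6 without male KlKl 1 or female KlKl 4 (adjusted p = 0.072 and 0.056). For mt-Nd6 the male KlKl libraries had 5647, 5139, 5030 and 5506 TPM and the female KlKl libraries 7734, 9189, 6850 and 8554, without overlap. In controls none of these passed with all libraries, and all 3 did without female control 3, where mt-Nd6 was -0.46 (limma adjusted p = 0.0014). Among controls, mt-Nd6 had 5741 to 6315 TPM in males and 7346, 8683, 3394 and 8845 in females.

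Some mRNAs that share a transcript differed from their partners by sex. For the bicistronic pair mt-Nd4l and mt-Nd4, the copies of both genes were added. The TPM ratio was 0.331 to 0.551 in males and 0.233 to 0.303 in 7 female libraries, with female control 3 lower still. The pair mt-Atp8 and mt-Atp6, which overlap by 43 bases, had a ratio of 0.434 to 0.643 in males and 0.247 to 0.421 in females, with the copy of mt-Atp6 added. The ratio of mt-Nd5, the longest mRNA, to mt-Nd3 with its copy added was 0.298 to 0.532 in males and 0.174 to 0.209 in 7 female libraries, and 0.0192 in female control 3. As deposited, without the copies, the 3 ratios were 0.198 to 0.294, 0.865 to 1.284 and 0.669 to 1.175 in males. In the 7 female libraries they were 0.133 to 0.162, 0.665 to 0.841 and 0.346 to 0.461. None of these ratios overlapped between the sexes with or without the copies, and a ratio within a library does not depend on how libraries are scaled. The genes in them are among those reported above as differing by sex, so the lack of overlap is not separate support. How many other gene pairs separate the sexes was not counted. The rRNAs did not pass between the sexes: mt-Rnr1 and mt-Rnr2 differed by -0.45 ± 0.22 and -0.42 ± 0.25 in controls (limma adjusted p = 0.094 and 0.17), and by -0.24 and -0.13 without female control 3. With other scalings mt-Rnr1 did pass in controls: median ratios gave -0.72, nuclear protein-coding scaling -0.73 and voom -0.81 (limma adjusted p = 0.036, 0.024 and 0.032). With nuclear protein-coding scaling mt-Rnr2 passed too (-0.70, limma adjusted p = 0.048). The summed level of 13 proximal tubule markers, Kap among them, differed with sex too. It was 6555 to 8095 TPM in male and 2183 to 5008 in female controls, with none of 13 at 0 and female control 3 the highest female control. A sum can be led by its most abundant genes, so it does not show that each marker differed. Its part in the mitochondrial differences was not tested.

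The nuclear genes that serve mitochondrial DNA and RNA were followed alongside. Of 23 genes for transcription and maintenance of mitochondrial DNA, 12 were tested, and none passed in the KlKl comparisons. All 12 were higher on average in male KlKl, median 0.19 beside 0.18 for all tested genes, with the smallest p for Mterf4, a termination-factor family member (0.25 ± 0.080, limma adjusted p = 0.21), and Tk2, the mitochondrial thymidine kinase (0.21 ± 0.085, adjusted p = 0.24). Between control males and females 5 of 12 passed as higher and 1 as lower in males, where 44.3% of all tested genes passed as higher and 8.3% as lower. Among the 5 were Tefm (0.59), the elongation factor of mitochondrial transcription, Twnk (0.46), the helicase, and Tfam (0.38), which packages the DNA and starts transcription. These were 0.55, 0.43 and 0.41 without female control 3. In KlKl 8 of 12 passed as higher, beside 50.9% of all tested genes, with Tefm and Tfam both at 0.46.

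Of 30 genes of mitochondrial RNA processing and decay, 16 were tested and none passed in the KlKl comparisons. In male KlKl the smallest p were those of Ddx28, an RNA helicase (0.33 ± 0.11), and Angel2 (0.23 ± 0.086), both with a limma adjusted p of 0.22. Between control males and females 10 of 16 passed as higher and 1 as lower in males, beside 44.3% and 8.3% of all tested genes. Grsf1, an RNA-granule protein that binds light-strand RNA, was 0.75 higher, and Lrpprc, which stabilises mitochondrial mRNAs with its partner Slirp, was 0.38 higher, while Slirp was the 1 that was lower, at -0.39. For these 3 genes the differences were 0.69, 0.31 and -0.33 without female control 3. In KlKl 9 of 16 passed, all higher, beside 50.9% of all tested genes, with Grsf1 at 0.78 and Lrpprc at 0.39. Of 12 regulators of biogenesis, 3 were tested (Gabpa, Sirt3 and Esrra). None passed for KlKl, and all 3 were higher in males in controls (0.33 to 0.65) and in KlKl (0.39 to 0.54), comparisons in which 44.3% and 50.9% of all tested genes passed as higher. The control range was 0.33 to 0.41 without female control 3, with Esrra going from 0.65 to 0.41.

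Of 56 nuclear subunits of oxidative phosphorylation, 55 were tested. In male KlKl 54 of 55 were higher on average, with a median of 0.19 beside 0.18 for all tested genes, and none passed. All 13 mitochondrial mRNAs were lower there. TPM share a fixed total, so these directions are not independent, and the subunit count was smaller under median-ratio scaling, as given below. The smallest p were those of Atp5o, of ATP synthase (0.31 ± 0.13), and Cox4i1, of complex IV (0.32 ± 0.13), both with a limma adjusted p of 0.24. In female KlKl 40 of 55 were higher, median 0.06 beside 0.10, or 45 of 55 with a median of 0.09 beside 0.08 without female control 3, and none passed in either fit. Between control males and females 10 of 55 passed as higher and 18 as lower in males, where 44.3% of all tested genes passed as higher and 8.3% as lower. They ran from Atp5b (0.77), the catalytic subunit of ATP synthase, and Ndufs1 (0.74), of complex I, to Atp5h (-1.04) and Atp5e (-1.02), both of ATP synthase, or 0.79, 0.73, -1.01 and -0.76 without female control 3. In KlKl 10 of 55 passed as higher and 4 as lower, beside 50.9% and 3.72%.

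With female control 3 left out, the counts higher and lower between control males and females were 5 and 0 of 12 for transcription and maintenance, 10 and 1 of 16 for RNA processing and decay, 3 and 0 of 3 for biogenesis and 10 and 16 of 55 for the subunits. In KlKl that library enters only through the shared spread, and leaving it out gave 9 and 0, 9 and 1, 3 and 0, and 12 and 8 in the same order. Scaling by median ratios gave 3 and 3, 7 and 1, 1 and 0, and 6 and 35 in controls, and 3 and 1, 6 and 1, 1 and 0, and 4 and 30 in KlKl. The shares of all tested genes under these settings are those given above beside the mitochondrial counts. Under the same scaling 34 of 55 subunits were higher on average in male KlKl and 22 of 55 in female KlKl, and none passed in either.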

How the data were processed

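Poly(A) RNA of 16 kidneys was sequenced. The authors deposited 1 table of TPM, made with Partek on build mm39 (per the submitters' processing notes). For the aligner, counting rule and annotation, the sources used here give nothing. Tested on the values, the deposited TPM equal reads plus 0.0001 over gene length, scaled to a total of 309446. Reads were recovered from this, and 79.0% to 85.6% of values under 20 reads came out whole within 0.1. A count of 0 allows up to 3 reads, for counting error only.

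Genes with 1 TPM or more in at least 4 libraries were tested (8059). Limma 3.58.1 in R 4.3.3 fitted 4 group means to log2(TPM + 1) with a mean-variance trend and 12 residual degrees of freedom. This understates differences of low genes. All adjusted p-values are limma's, by the Benjamini-Hochberg method over all tested genes, with a threshold of 0.05. The fit was tested on simulated data. Columns were matched to animals by library name, and no column belonged to another sample. Replicates are separate animals per the labels' titles and ages.

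The members, gene lists and tests were chosen with earlier results of these data known. Named are all members, Kl, the nuclear copies and, per pathway list, passing members or the 2 with the smallest p. In the sex comparisons only examples of the passing list members are named. Of 204 listed genes 1 was matched under another symbol. Alternatives covered pseudocount, filter, scaling, weights, age, controls, voom on recovered reads and each library left out. Adding copies, and leaving out female control 3 with median-ratio scaling, with copies added or with male KlKl 3, were chosen after seeing the data, as was counting Gm10222 as a copy. Sequences were aligned with Biopython 1.88 under Python 3.11.15.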

Additional observations from a re-analysis of the deposited data

Results flagged for a closer look

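The gap of a library to the nearest other was set over the range of all 4. Chance passes about 1 in 20 sets of independent, normally distributed values. Of 133 sets of 4 libraries, 17 held a library far from the other 3 by this rule. Of these, 8 were in female control 3: mt-Nd1 at 6790 TPM, mt-Nd2 at 2437, mt-Nd4 at 1817, mt-Nd5 at 290, mt-Cytb at 5006, mt-Tn at 11.7, mt-Tc at 5.06, and a share of 22.5% of TPM for all mitochondrial mRNAs. In female KlKl 4 they were mt-Tl1 at 6.66 TPM, mt-Ty at 8.28 and Gm29216 at 20843. Other female KlKl values were mt-Nd1 at 11245 in replicate 2 and mt-Te at 43.5 in replicate 3. In males they were mt-Tf at 2.17 in control 4, mt-Ti at 1.41 in control 2, mt-Tn at 3.19 in KlKl 3 and Gm28439 at 383 in KlKl 1. The first 3 of these male values are 3, 2 and 3 reads. Since the sets share libraries and such low counts are not normally distributed, the 17 cannot be judged against that rate.

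With all libraries, the mean KlKl difference had opposite signs in males and females for 17 of the 25 tested members, 11 mRNAs, 1 rRNA and 5 tRNAs. Without female control 3 all 13 mRNAs were lower in KlKl in both sexes, so the 11 rest on that library. The share of opposite signs over all tested genes was not counted. For 6 of the 17, every KlKl library of 1 sex lay below the mean of its controls and every KlKl library of the other sex above it. Limma's test of the difference between the sexes passed for none of the 6. For mt-Tc the male side rests on 1 read in male control 2, with 0 reads in every other male library. The mRNAs among the 6 did not meet this rule without female control 3. The difference, males minus females, was -1.25 for mt-Tc, -0.52 for mt-Atp8, -0.71 for mt-Nd4, -0.95 for mt-Nd5, -0.46 for mt-Nd6 and -0.53 for mt-Cytb. Leaving out female control 3 gave -1.83, -0.22, -0.24, -0.20, -0.14 and -0.20 in the same order.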

How the results depend on the processing

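For counts, medians and shares, 367 alternative values stayed close to the reported one and 21 moved. For 28 single-gene differences, 779 alternatives kept direction and call, 76 lost the call and 5 reversed. All 5 reversals were mt-Nd5 in female KlKl against control: -0.20 without female control 3 (leaving out single libraries gave -0.20 to 0.83), -0.20 without it and male KlKl 3 or with copies added, -0.28 without it under median-ratio scaling and -0.077 with array weights. In that comparison the mRNA median was -0.19 without female control 3 under median-ratio scaling. For the sex difference of the KlKl effect the median was -0.14 with array weights, -0.11 without female control 3 and male KlKl 3 and -0.13 without female control 3 with copies added, and -0.58 to -0.13 leaving out single libraries. The cause was not tested.

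Counts of passing members in this section carry no share of all tested genes, except under settings given above. They show only how far the reported counts moved. Using no filter, or voom, also changes which members are tested. Between control males and females 6 members passed (1 higher, 5 lower) with no filter, with voom, with heterozygous controls alone and with the libraries compared alone. With median-ratio or nuclear protein-coding scaling 10 passed, 1 higher and 9 lower, against 5 and 5 as reported. The mRNA median was -0.22 under median-ratio scaling without female control 3. In KlKl, 14 passed with array weights and 14 under median-ratio scaling without female control 3. That median was -0.41 under median-ratio scaling with or without that library, -0.46 under nuclear protein-coding scaling and -0.54 with voom. Leaving out single libraries gave 7 to 13 passing members in controls and 7 to 12 in KlKl. The calls of mt-Ts1, mt-Tq, mt-Te, mt-Nd3 and mt-Nd4l in controls held under every alternative run for each. Voom, which needs 10 reads in 4 libraries, gave no value for mt-Tq or for any other tRNA except mt-Ts1 and mt-Te.

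Averaged over the sexes, 1 member passed with age as a covariate and 0 as reported. Counted in reads, the mitochondrial share was 14.9% in controls and 11.8% in KlKl for males, and 16.6% and 15.8% for females.

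Replicate numbers did not pair the animals: deviations of same-numbered libraries correlated at -0.22 to 0.22, over 0.1 in 5 of 24 pairs. With the replicate number as a block, 11 members passed between controls, 9 in KlKl and 0 for KlKl against control. Depth limits the tRNAs most, since 3 reads are 1.94 to 3.56 TPM for a gene of tRNA length.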
